A study of Mus musculus with 2 samples.

Results

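B cells were the object of this account: lymphocytes found among spleen cells that had been sorted for CD11b and Gr1, the surface proteins of neutrophils and many monocytes. A cell was taken as a B cell when it held at least 5 unique molecular identifiers (UMIs, each standing for 1 captured transcript) of Cd79a, Cd79b and Ms4a1 together. It also had to hold S100a8 and S100a9, the most abundant neutrophil transcripts, at under 5% of its UMIs, fewer than 2 UMIs of Cd3e and Cd3g, and fewer than 2 of Csf1r and Ccr2. This rule took 1374 of 14646 cells. It found 298 of 5491 cells in the wild-type library, a share of 5.43% (exact Clopper-Pearson 95% interval 4.84 to 6.06%), and 1076 of 9155 in the PyMT library, 11.8% (11.1 to 12.4%). With a limit of 1% on S100a8 and S100a9 in place of 5%, the shares were 4.55% and 0.568%, so that their order turned. That limit lies above the median S100a8 and S100a9 share of wild-type B cells (0.763%). It lies below the medians of B cells (1.38%) and T cells (1.29%) in PyMT. The cells were selected on the values of those genes, and the sorting gate sets the shares in part, so the shares describe the libraries.

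The wild-type library pooled the spleens of 5 control mice of strain FVB/n, and the PyMT library pooled the spleens of 3 mice that carried tumours and whose strain is given only as PYMT. In PyMT mice the polyoma middle T antigen is made in the mammary epithelium, and mammary tumours follow. Spleen cells of both groups went through red cell lysis, a block of Fc receptors with an antibody to CD16 and CD32, and the sort, and then into 3′ droplet single-cell libraries. The labels give no age. Each group is 1 library, so no difference between conditions has a replicate check, and no p-value was made. All intervals below are 95% intervals for counting error only.

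The spleen holds most of its B cells in follicles, where they recirculate and respond to protein antigens with T cell help. A smaller population stays in the marginal zone, at the border to the blood, and responds quickly to blood-borne antigens. In the mouse, marginal zone cells carry much complement receptor CD21, encoded by Cr2, and little of the low-affinity IgE receptor CD23, encoded by Fcer2a; follicular cells carry CD23 and less CD21. Development of the marginal zone cell depends on Notch2 signalling, for which Dtx1 and Hes1 are usual target genes. On GRCm38, Cr2 lies on chromosome 1 at 195136811 to 195176716 and Fcer2a on chromosome 8 at 3681737 to 3694175, both on the minus strand.

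The median B cell held 3741 UMIs (2752 to 16140) in the wild-type library and 3412 (2502 to 28721) in the PyMT library, against 5668 and 7063 over all cells. Their sums were 1273658 and 4185951 UMIs, of library totals of 42542700 and 73435307. The median mitochondrial share of their UMIs was 3.68% and 3.10%. The libraries shared 72 cell barcodes, of which 6 belonged to a B cell in either library and 0 to a B cell in both. Few cells lay near the limit on B cell genes: 3 wild-type and 1 PyMT cell held 3 or 4 UMIs and met the other limits, and 3 and 4 members held 5 or 6. More lay near the neutrophil limit in PyMT, with 29 members at 4 to 5% S100a8 and S100a9 and 18 cells outside at 5 to 6%. The corresponding wild-type numbers were 5 and 0. Of 734 wild-type and 1496 PyMT cells with enough B cell UMIs, 363 and 348 failed the S100 limit.

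Genes of B cell identity that the rule did not use were detected far more often in members than in T cells. Ebf1, a transcription factor that specifies the B lineage, was detected in 98.3% of wild-type and 99.7% of PyMT members. In the 54 and 133 T cells of the same libraries, taken as cells with at least 2 UMIs of Cd3e and Cd3g, it was detected in 0% and 0.75%. These T cells had median depths of 3604.5 and 3453 UMIs, close to those of the B cells. Pax5, which maintains B cell identity, was seen in 53.4% and 44.3% of members. Bank1, an adaptor of the B cell receptor, was seen in 72.5% and 80.6%. T cells had Pax5 in 0% and 0.75%, and Bank1 in 1.85% and 0.75%. Ighd, the constant region of IgD, and the other immunoglobulin constant genes were not analysed here.

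Cd93, Cd5, Sdc1 and Jchain, single markers of other B cell stages, were rarely detected in members, and whole profiles were not assessed. In wild type, 86.2% of B cells and 74.1% of T cells held a UMI of the 13 genes listed for transitional and precursor cells. For the 14 genes listed for B-1 and age-associated cells, the shares were 38.6% and 75.9%. For the 10 genes listed for plasma cells they were 96.3% and 42.6%. Mzb1, which is on that list, was detected in 92.3% of wild-type and 90.1% of PyMT B cells. Cd93, a marker of transitional cells, had 1 UMI in each library, and Cd5, a marker of B-1a cells, had 2 and 4. Sdc1, the plasma cell marker CD138, had 7 and 1. Mki67, a gene of dividing cells, was detected in 1.01% and 0.84% of B cells. Jchain, made by plasma cells, had 311 and 283 UMIs, but 1 cell in each library held 298 and 277 of them.

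Of the transcripts of the sorting antigens, Itgam and Ly6g were about as frequent in PyMT B cells as in PyMT T cells, while Ly6c2 was less frequent in B cells than in T cells of wild type. Itgam, the gene of CD11b, was detected in 7.05% of wild-type B cells (4.41 to 10.6%) and in 6.04% of PyMT B cells (4.69 to 7.64%). The T cells had it in 1.85% and 6.77%, while S100a8/S100a9-high cells, those at or above the 5% limit with fewer than 2 UMIs each of the B cell genes, of Cd3e and Cd3g, and of Csf1r and Ccr2, had it in 84.4% and 74.3%. With 1000 UMIs drawn from every cell, the B cell shares were 1.01% and 1.58% and the T cell shares 1.85% and 3.01%. Ly6g, which encodes a Gr1 antigen, was likewise in 16.4% and 15.0% of B cells and in 9.26% and 15.8% of T cells. Ly6c2, which encodes the other Gr1 antigen, was in 19.1% (14.8 to 24.1%) and 31.4% (28.7 to 34.3%) of B cells and in 59.3% (45.0 to 72.4%) and 36.1% (27.9 to 44.9%) of T cells. RNA levels do not report the surface protein.

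The neutrophil transcripts Camp, S100a8 and S100a9 were present in nearly all B cells at a level close to that of the T cells. Camp, the cathelicidin of neutrophil granules, was detected in 99.3% and 98.2% of B cells. Its level, in UMIs per 1000000 of the summed total (CPM), was 1538 in wild-type and 1177 in PyMT B cells, 1389 and 1099 in T cells, and 71029 and 32528 in S100a8/S100a9-high cells. S100a8 and S100a9 took a median of 0.763% (wild type) and 1.38% (PyMT) of a B cell's UMIs, and 0.745% and 1.29% of a T cell's. The S100a8 and S100a9 share was thus higher in the PyMT library in B and T cells alike, while the level of Camp was lower there in both.

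When B cells were classed by the detection of Fcer2a and Cr2, the class shares of the libraries lay close together. Cr2 without Fcer2a was seen in 161 wild-type cells, 54.0% (48.2 to 59.8%), and 600 PyMT cells, 55.8% (52.7 to 58.8%). Fcer2a without Cr2 was seen in 21 wild-type cells, 7.05% (4.41 to 10.6%), and 93 PyMT cells, 8.64% (7.03 to 10.5%). Both were seen in 59 cells, 19.8% (15.4 to 24.8%), and 187 cells, 17.4% (15.2 to 19.8%). Neither was seen in 57 cells, 19.1% (14.8 to 24.1%), and 196 cells, 18.2% (16.0 to 20.7%). The interval of each class in wild type overlapped that in PyMT. In all, Cr2 was detected in 73.8% and 73.1% of B cells, against 0% and 0.75% of T cells and 0.78% and 1.75% of S100a8/S100a9-high cells. Fcer2a was detected in 26.8% and 26.0% of B cells and in 0 of 54 and 0 of 133 T cells, and a limit of 3 counts of the total allows cells with a UMI at shares of up to 5.56% and 2.26%.

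**Figure D1:**
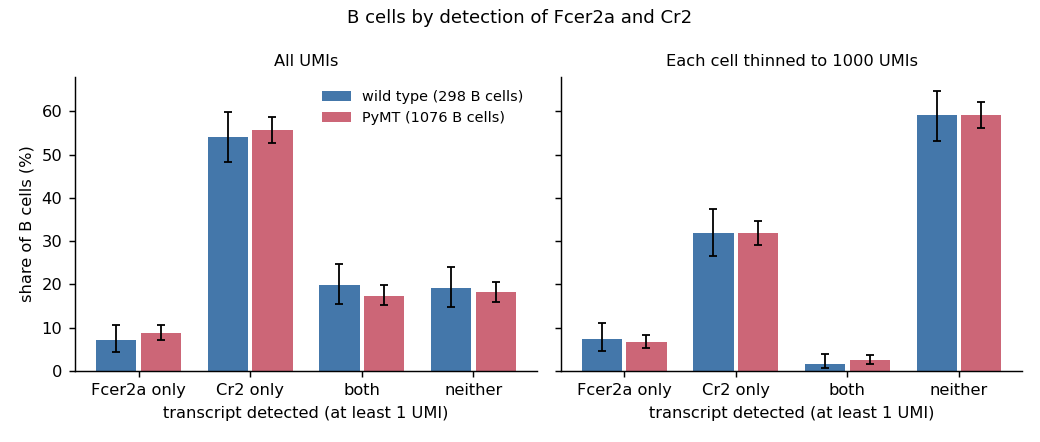
Share of B cells (percent) in which Fcer2a only, Cr2 only, both or neither were detected, in wild type (298 cells) and PyMT (1076 cells), from all UMIs (left) and at 1000 UMIs drawn per cell (right); bars are shares and error bars exact 95% binomial intervals. The Cr2-only class is the tallest on the left, at 54.0% and 55.8%, and the class with neither is the tallest on the right, at 59.1% in each library.

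These classes depend on depth and are ranges of detection, not cell types. At 1000 UMIs per cell, Cr2-only cells were 31.9% in wild type and 31.8% in PyMT, Fcer2a-only cells 7.38% and 6.60%, cells with both 1.68% and 2.51%, and cells with neither 59.1% in each. The order of the 2 single-positive classes was the same at either depth. Median depth differed between classes, at 3609 UMIs for Fcer2a-only, 3582 for Cr2-only, 4287 for both and 3418 for neither in wild type. The PyMT medians were 2906, 3574, 3527 and 3131.5 UMIs. A cell without a transcript of either gene can therefore be a cell in which it was missed.

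Detection of Fcer2a was lower with more Cr2 in PyMT, within wide intervals. Of the 289 PyMT B cells without Cr2, 93 had Fcer2a, or 32.2% (26.8 to 37.9%). Of the 161 with 4 or more UMIs of Cr2, 33 had it, or 20.5% (14.5 to 27.6%), although their median depth was higher, 3971 against 2994 UMIs. The thinned shares were 13.8% and 4.35%. In wild type the same shares were 26.9% of 78 cells (17.5 to 38.2%) and 23.4% of 47 cells (12.3 to 38.0%), a difference that was not detectable at this number of cells.

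Genes known from marginal zone B cells were higher in Cr2-only than in Fcer2a-only cells of the same library, and genes known from follicular cells were lower. Of the marginal zone list without Cr2, 7 of 11 members with at least 50 UMIs were at least 1.5-fold higher in wild type and 0 lower, with a median log2 ratio of 0.89. In PyMT 16 of 19 were higher and 0 lower (median 1.17). Over all genes with that many UMIs, 11.1% of 1477 were higher and 20.1% lower in wild type, and 10.7% of 4831 were higher and 11.9% lower in PyMT, with a median of -0.08 in each. Of the follicular list without Fcer2a, 0 of 6 were higher and 3 lower in wild type (median -0.62), and 0 of 11 were higher and 6 lower in PyMT (median -0.61). Cr2 and Fcer2a chose the cells and were left out. The lists were chosen with earlier results of these data known, so these counts are a description.

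The scaling of the sums moves these counts. When the sums were scaled by a trimmed mean of M-values, all genes had a median of 0.30 in wild type and 0.08 in PyMT. The wild-type split turned from 164 higher and 297 lower to 442 higher and 99 lower, and the PyMT split from 516 and 575 to 757 and 318. Relative to those shifts the lists kept their directions: the marginal zone medians were then 1.27 and 1.32 and the follicular medians -0.24 and -0.45. The Fcer2a-only sum is small, at 89699 UMIs from 21 cells in wild type and 294244 from 93 cells in PyMT.

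Targets of Notch2 signalling were among the genes with higher levels in Cr2-only cells. Dtx1, a Notch target that encodes an E3 ubiquitin ligase, had 5 UMIs in the 21 Fcer2a-only cells of wild type (55.7 CPM) and 113 in the 161 Cr2-only cells (172 CPM), a log2 ratio of 1.62 (0.36 to 3.27). In PyMT it had 16 UMIs in 12 of 93 Fcer2a-only cells (54.4 CPM) and 579 in 314 of 600 Cr2-only cells (239 CPM), a log2 ratio of 2.14 (1.43 to 2.96). Its ratio stayed above 0 under every alternative run, from 0.43 (thinned to 1000 UMIs, under 1.5-fold) to 2.17 in wild type and from 1.97 to 3.03 in PyMT. Hes1, a repressor induced by Notch, had log2 ratios of 0.89 (-0.14 to 2.14) and 0.76 (0.19 to 1.39). Notch2 itself, the receptor, had ratios of -0.47 (-1.46 to 0.67) and 0.14 (-0.43 to 0.76), so neither direction was resolved. Of the whole Notch list, 2 of 3 members in wild type were at least 1.5-fold higher. In PyMT 3 of 7 were higher and 2 lower. The lower members were Mfng, a glycosyltransferase that modifies Notch receptors, at -0.63 (-1.41 to 0.24), and Adam10, a protease that cleaves them, at -0.60 (-1.43 to 0.34).

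Surface and signalling genes of marginal zone cells mostly had higher levels in Cr2-only cells as well. Mzb1, an endoplasmic reticulum protein that aids IgM secretion, was at 457 CPM in Fcer2a-only and 1013 in Cr2-only cells of wild type, and at 615 and 932 in PyMT. Those levels gave log2 ratios of 1.15 (0.69 to 1.64) and 0.60 (0.38 to 0.83), and the PyMT ratio was -0.10 in cells under 1% S100a8 and S100a9. Cd1d1, which presents lipids to NKT cells, had 5 UMIs in Fcer2a-only and 171 in Cr2-only cells of PyMT, a log2 ratio of 2.06 (0.81 to 3.70). Its 2 and 35 UMIs in wild type fell short of the 50 needed for a count. S1pr1 and S1pr3 encode sphingosine-1-phosphate receptors that hold cells in the marginal zone. In PyMT their ratios were 1.17 (0.39 to 2.06) and 2.05 (0.14 to 5.12). In wild type S1pr1 was at 0.36 (-0.59 to 1.46), and S1pr3 had 0 and 17 UMIs. The tetraspanin gene Cd9 was at 0.32 (-0.89 to 1.83) in wild type and 1.21 (0.30 to 2.29) in PyMT, and the scavenger receptor gene Cd36 was at 1.45 (0.05 to 3.36) in PyMT. Fcrl5, an Fc receptor-like gene, and Asb2, a ubiquitin ligase subunit, had 2 and 1 UMIs in Fcer2a-only and 89 and 107 in Cr2-only cells of PyMT. Their log2 ratios were 2.44 (0.54 to 5.50) and 3.70 (1.19 to 9.02).

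Genes with higher levels in Cr2-only cells of both libraries also included Ly6a, Rgs10, Plac8 and Cd81. Of these, Rgs10 and Plac8 are already counted in the marginal zone list above. Ly6a encodes Sca-1, an interferon-inducible surface protein. It was at 66.9 CPM in Fcer2a-only and 412 in Cr2-only cells of wild type, and at 177 and 458 in PyMT, with log2 ratios of 2.62 (1.48 to 4.08) and 1.37 (0.97 to 1.80). Rgs10, a regulator that dampens G protein signalling, rested on 3 and 106 UMIs (wild type) and 5 and 132 (PyMT), with ratios of 2.27 (0.68 to 4.57) and 1.68 (0.42 to 3.33). Plac8 was at 0.61 (0.34 to 0.89) and 1.19 (0.98 to 1.41), and Cd81, a tetraspanin of the B cell coreceptor, at 0.77 (0.15 to 1.45) and 0.63 (0.37 to 0.91). Thinned to 1000 UMIs per cell, 3 of these ratios were under 1.5-fold: 0.18 for Rgs10 and 0.51 for Plac8 in wild type, and 0.23 for Cd81 in PyMT. Plac8 in wild type was also at 0.54 under 1% S100a8 and S100a9 and at 0.34 with 2 UMIs needed for detection. The marginal zone list, Plac8 included, summed to 7301 and 7082 CPM in Csf1r/Ccr2 cells, the monocyte-marked cells with at least 2 UMIs of those genes, more than in any class of B cells. Tcf4, an E protein, was at 1.21 (0.04 to 2.69) and 0.66 (0.14 to 1.23), but at -0.35 and 0.18 once the cells were thinned. Ebf1 was at 0.87 (0.56 to 1.20) in wild type, while its 0.23 (0.09 to 0.37) in PyMT was under 1.5-fold.

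Lower levels in Cr2-only cells were found for genes of circulating follicular cells. Klf2, a transcription factor that maintains quiescence and follicular identity and restrains marginal zone entry, was at 970 CPM in Fcer2a-only and 324 in Cr2-only cells of wild type, and at 822 and 340 in PyMT. The log2 ratios were -1.58 (-1.95 to -1.21) and -1.27 (-1.48 to -1.06). Fcmr, the Fc receptor for IgM, was at 524 and 308 CPM in wild type and 771 and 400 in PyMT, ratios of -0.77 (-1.23 to -0.28) and -0.95 (-1.16 to -0.73). The Fcmr ratio was under 1.5-fold in wild type with trimmed-mean scaling (-0.39) and when thinned (-0.40), and in PyMT under 1% S100a8 and S100a9 (-0.46). Cd55, a brake on complement, was at -2.59 (-3.36 to -1.80) and -0.91 (-1.35 to -0.44). S100a10, which binds annexin A2, was at -1.65 (-2.09 to -1.20) and -1.19 (-1.52 to -0.86).

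In PyMT, where more members had enough UMIs, several further genes of follicular positioning were lower in Cr2-only cells. Ccr7, which draws cells towards the T zone, was at -1.06 (-1.74 to -0.31), and its 16 and 18 UMIs in wild type were under the limit. Zfp318, which is needed for IgD, was at -1.21 (-1.94 to -0.42), Gpr183, an oxysterol receptor that guides B cells in the follicle, at -0.92 (-1.51 to -0.28), and S1pr4 at -1.64 (-2.25 to -0.99). Cxcr5, the receptor for the follicular chemokine CXCL13, did not share this pattern, at -0.02 (-0.61 to 0.63). Ltb, a lymphotoxin subunit, was at -0.36 in wild type and -0.31 in PyMT. Of 18 homing and egress genes in PyMT, 3 were at least 1.5-fold higher and 5 lower, against 10.7% and 11.9% of all 4831 genes.

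Some lists outside these programmes differed between the libraries in the same comparison, and the difference was not tested. Of the immediate-early genes, which respond within minutes to stimulation and to handling, 1 of 17 was at least 1.5-fold higher and 8 lower in wild-type Cr2-only cells (median -0.58). In PyMT 1 of 20 was higher and 3 lower (median -0.13). Over all genes, 11.1% were higher and 20.1% lower in wild type, and 10.7% and 11.9% in PyMT. Junb, an AP-1 subunit, was at -1.66 (-2.01 to -1.31) in wild type and -0.19 (-0.42 to 0.06) in PyMT, whereas Jund was at -1.13 (-1.46 to -0.79) and -0.65 (-0.86 to -0.44), the PyMT value of Jund being -0.50 with trimmed-mean scaling. The interferon response list had 1 of 9 higher and 5 lower in wild type and 4 of 20 higher and 0 lower in PyMT. Of the MHC class II and costimulation genes, 0 of 10 passed 1.5-fold in wild type, and 1 of 12 was higher in PyMT.

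Of 1477 genes with enough UMIs in both libraries, 22 were at least 1.5-fold higher in Cr2-only cells of each. That is 13.4% of the 164 in wild type and 43.1% of the 51 among them in PyMT. Similarly 33 were lower in each, 11.1% of 297 and 44.0% of 75, and 13 went opposite ways. Over all 1477 genes, 11.1% were higher and 20.1% lower in wild type, and 51 genes were higher and 75 lower in PyMT. The wild-type Fcer2a-only class also held more monocyte transcripts. The monocyte list summed to 4705 CPM there, against 2260 in wild-type Cr2-only cells, while the median cell stood at 1382 and 1003 and the highest Fcer2a-only cell at 26132. The PyMT sums were 1743 and 1519. The neutrophil list stood at 21684 and 15393 CPM in wild type and at 25163 and 25507 in PyMT. The part of these transcripts in the wild-type ratios was not tested.

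Summed over the list, marginal zone genes put the class with both transcripts between the 2 single-positive classes in each library. Without Cr2 the list stood at 2687 CPM in Fcer2a-only cells of wild type (2358 to 3048), 3457 with both (3247 to 3677) and 4778 in Cr2-only cells (4613 to 4948). The PyMT sums were 2124 (1961 to 2297), 3178 (3055 to 3304) and 4171 (4090 to 4253). The follicular list without Fcer2a went the other way. It stood at 3567, 2814 and 2035 CPM in wild type and 3647, 2889 and 2490 in PyMT. This list is not particular to B cells: it stood at 2225 CPM in wild-type T cells, against 2296 over all wild-type B cells.

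**Figure D2:**
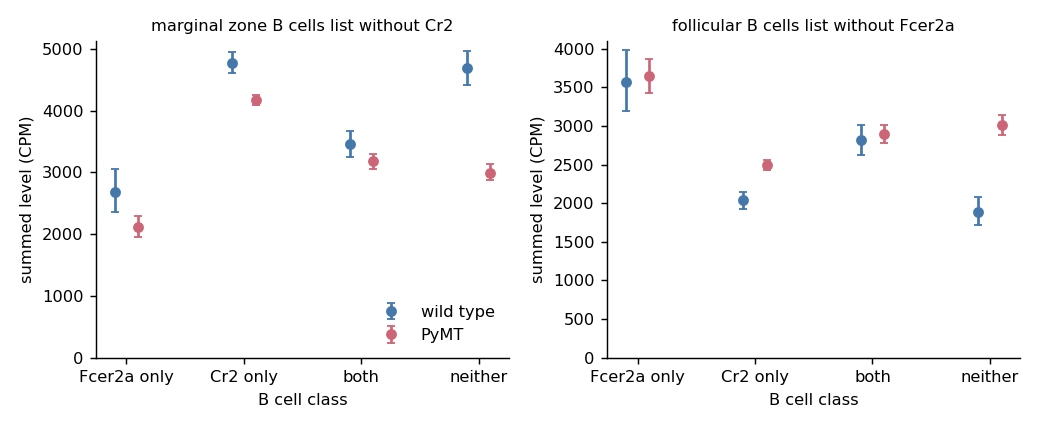
Summed level (CPM) of the marginal zone list without Cr2 (left) and of the follicular list without Fcer2a (right) in the 4 classes of B cells, in wild type and PyMT; points are sums over the cells of a class and error bars exact 95% Poisson intervals. The Cr2-only class is above the Fcer2a-only class on the left and below it on the right in each library, and the class with neither lies near Cr2-only cells in wild type but not in PyMT.

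By these sums, cells with neither transcript lay near Cr2-only cells in wild type and between the single-positive classes in PyMT. Their marginal zone sum was 4685 CPM (4411 to 4971) in the wild-type library and 2999 (2870 to 3133) in the other, and their follicular sum was 1892 and 3012 CPM. Abundant members such as Plac8 and Mzb1 weigh most in the marginal zone sums. Gene by gene, the median log2 ratio of 12 marginal zone members was -0.29 in wild-type cells with neither over Cr2-only cells. Compared with Fcer2a-only cells, 3 of 3 marginal zone members with enough UMIs were at least 1.5-fold higher in wild type. In PyMT 4 of 11 were higher and 1 lower. The background was 7.94% higher and 14.6% lower of 642 genes in wild type, and 3.93% and 6.11% of 2162 in PyMT. Under trimmed-mean scaling the splits turned from 51 higher and 94 lower to 152 and 45 in wild type, and from 85 and 132 to 128 and 76 in PyMT. The median over all genes then moved from -0.01 to 0.31 in wild type. Klf2 was at -1.41 (-1.86 to -0.96) in wild type and -0.28 (-0.51 to -0.05) in PyMT. Ly6a was at 3.28 (2.12 to 4.74) and 0.70 (0.25 to 1.17), and Plac8 at 0.65 (0.36 to 0.95) and 0.78 (0.55 to 1.02).

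Apoe, an apolipoprotein that macrophages make in quantity, was higher in the cells with neither transcript of both libraries. It was at 290 CPM in Fcer2a-only, 164 in Cr2-only and 635 in neither in wild type, and at 160, 139 and 337 in PyMT. In wild type 1 cell held 47 of the 148 UMIs of the class with neither. Thinned to 1000 UMIs, the ratios of that class over Fcer2a-only cells were 0.30 and 0.40, under 1.5-fold. Against Cr2-only cells, the class with neither had lower levels of Dtx1, at -0.62 (-1.30 to 0.00) and -0.98 (-1.33 to -0.65), and of Hes1, at -0.95 (-1.71 to -0.25) and -0.86 (-1.29 to -0.45). In that comparison 6.58% of 1764 genes were at least 1.5-fold higher and 7.09% lower in wild type, and 4.82% and 6.7% of 5212 in PyMT. Of the marginal zone list 4 of 12 members were lower in wild type and 10 of 19 in PyMT, and 0 were higher in either.

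Between conditions, the genes that define B cells differed little. In PyMT over wild type, the log2 ratio was 0.19 for Ebf1 (0.11 to 0.26), -0.27 for Pax5 (-0.48 to -0.05), 0.12 for Cr2 (-0.02 to 0.26) and -0.12 for Fcer2a (-0.41 to 0.17). The rule genes, which chose the cells, had 0.23 for Cd79a, 0.40 for Cd79b and 0.35 for Ms4a1. Over all genes 13.1% of 6846 had levels at least 1.5-fold higher in PyMT, and 4.32% lower, with a median of 0.12. That split of 897 and 296 became 717 and 387 with a trimmed mean of M-values, so that the share of higher genes among them was 64.9% in place of 75.2%. Of 16 genes of the B cell receptor and its signalling, 1 was higher and 0 lower (median 0.15). Of 12 follicular genes 2 were higher and 0 lower (0.16). Of 20 marginal zone genes 1 was higher and 1 lower, with a median of 0.05 that became -0.02 with the trimmed mean and -0.01 with the median of ratios.

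**Figure D3:**
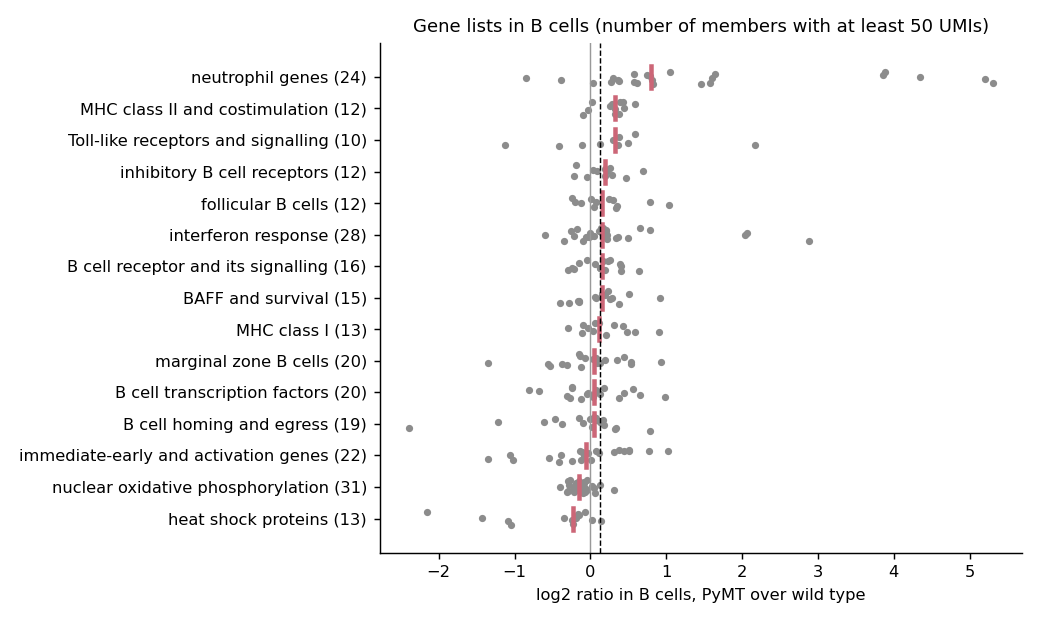
Log2 ratio in B cells, PyMT over wild type, of the members of 15 gene lists with at least 50 UMIs; grey points are genes (spread vertically at random), red bars list medians, and the dashed line the median of all 6846 genes (0.12). The neutrophil list, which includes Ifitm1, stands farthest to the right with a median of 0.80. The B cell lists lie close to the dashed line, and the heat shock list has a median of -0.23.

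Among B cell regulators the differences were of moderate size. Pou2af1 encodes the coactivator OBF-1, which works with Oct factors on immunoglobulin promoters. Wild-type B cells had 177 CPM of it (226 UMIs in 158 cells) and PyMT B cells 351 (1471 UMIs in 741 cells). Its ratio was 0.99 (0.78 to 1.19), and T cells had 9.45 and 3.88 CPM. Spib, an Ets factor of B cells, was at 0.66 (0.41 to 0.92). Bach2, a repressor that holds back plasma cell fate, was at -0.81 (-1.37 to -0.22), and Irf4, which promotes that fate, at -0.68 (-1.28 to -0.05). Of 20 transcription factors 2 were thus higher and 2 lower (median 0.04). Il9r, the interleukin 9 receptor, stood at 53.4 (wild type) and 144 CPM (PyMT), and was detected in 18.8% and 37.6% of B cells against 1.85% and 2.26% of T cells. Siglecg, an inhibitory receptor that limits B-1 cell signalling, was at 0.70 (0.54 to 0.86), and Cd81 at 0.65 (0.50 to 0.79).

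The MHC class II list had a median slightly above that of all genes. Cd74, the invariant chain of MHC class II, stood at 13931 CPM (wild type) and 18894 CPM (PyMT), a ratio of 0.44 (0.42 to 0.46), and H2-DMb2, which helps to load peptides, at 0.59 (0.48 to 0.69). Of 12 members of that list 1 was at least 1.5-fold higher and 0 lower (median 0.32). Of 13 class I genes, whose median of 0.12 was that of all genes, 2 were higher, H2-Q4 at 0.90 (0.64 to 1.16) and H2-T23 at 0.59 (0.39 to 0.79). Icosl, the ligand of the T cell receptor ICOS, was at 1.04 (0.64 to 1.45). Nfkb2, a subunit of the noncanonical pathway downstream of the BAFF receptor, was at 0.91 (0.52 to 1.33), while Tnfrsf13c, the BAFF receptor itself, was at 0.19 (0.01 to 0.39). Myd88, the adaptor of Toll-like receptors, had 12 UMIs in 11 wild-type cells and 178 in 143 PyMT cells, a ratio of 2.17 (1.33 to 3.15). Tlr7, a sensor of single-stranded RNA, was at -1.13 (-1.95 to -0.28).

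Apart from the haemoglobin genes treated below, genes with high PyMT ratios in B cells included Ifitm1, Wfdc17 and Ifitm2. The S100a8/S100a9-high cells of the PyMT library also held these 3 transcripts at high levels, 2990, 5624 and 3163 CPM. The Csf1r/Ccr2 cells of that library held them at 567, 2608 and 1982 CPM. Ifitm1, an interferon-induced membrane protein gene, had 25 UMIs in 8 of 298 wild-type B cells (19.6 CPM) and 3258 in 738 of 1076 PyMT B cells (778 CPM), a ratio of 5.31 (4.74 to 5.94). T cells had 0 and 446 CPM, and S100a8/S100a9-high cells 25.6 and 2990. If the neutrophil level is scaled by the S100a8 and S100a9 content of the B cells, 0.68 and 133 CPM are obtained. Wfdc17, a whey acidic protein domain gene, had 62.8 CPM in B cells of wild type and 908 in B cells of PyMT, a ratio of 3.85 (3.53 to 4.19). It was at 33.1 and 496 CPM in T cells and at 30.6 and 5624 in S100a8/S100a9-high cells. Csf1r/Ccr2 cells had 945 and 2608 CPM of Wfdc17, and the scaled neutrophil level was 0.81 and 249. Ifitm2 was at 113 and 473 CPM in B cells (ratio 2.06, 1.82 to 2.32), at 56.7 and 364 in T cells, with a scaled level of 12.8 and 140. With that level subtracted the ratios were 5.12 for Ifitm1 and 3.44 for Wfdc17. In cells under 1% S100a8 and S100a9, which left 250 wild-type and 52 PyMT cells, they were 3.85 and 2.97. The source of these transcripts in the B cells was not tested.

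**Figure D4:**
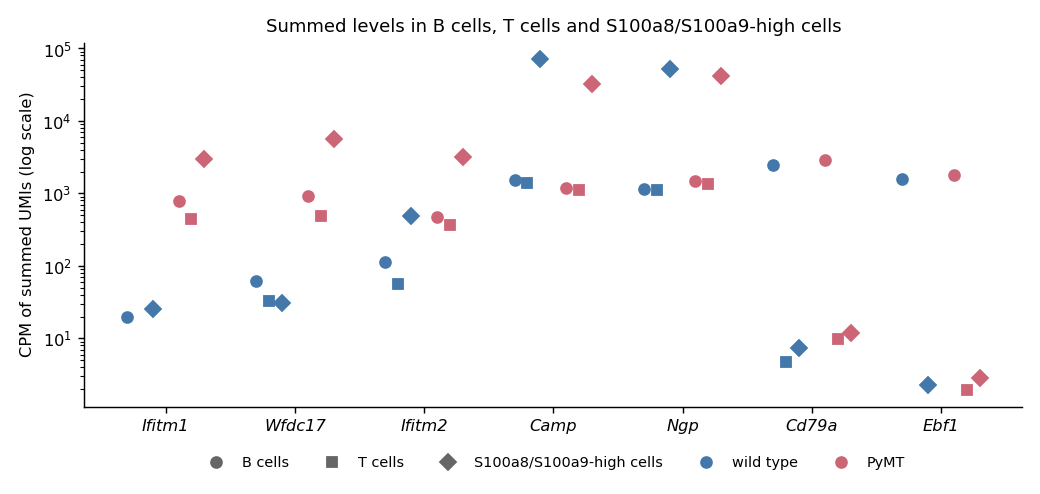
Level (CPM of summed UMIs, log scale) of 7 genes in B cells (circles), T cells (squares) and S100a8/S100a9-high cells (diamonds) of wild type (blue) and PyMT (red); a sum of 0 is not drawn and no errors are shown. Camp and Ngp lie at like levels in B and T cells of each library, Cd79a and Ebf1 are high in B cells, and Ifitm1 and Wfdc17 are higher in PyMT in every cell group.

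Of the 24 neutrophil genes with enough UMIs, 15 had a level at least 1.5-fold higher in PyMT B cells, and 1 a lower one (median 0.80). Over all 6846 genes 13.1% were higher and 4.32% lower. The list includes Ifitm1 and was chosen with earlier results of these data known, so the count is a description. Saa3, an acute-phase gene, had 210 UMIs in 53 PyMT cells and 0 in the wild-type ones, a ratio of at least 4.41 if 3 counts are taken for the empty wild-type sum, and 1 cell held 49 of them. Igfbp6 had 5 and 242 UMIs, a ratio of 3.88 (2.64 to 5.52), at 57.8 CPM in PyMT B cells against a scaled neutrophil level of 4.08. Lrg1 was at 3.58 (2.99 to 4.25).

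The interferon response list as a whole lay close to the median of all genes. Of 28 members 5 were at least 1.5-fold higher and 1 lower (median 0.16, against 0.12 for all genes). Ifitm1, at 5.31, is counted with the neutrophil list and is not a member of this one. Rtp4, a chaperone induced by interferon, had 4 UMIs in 2 wild-type cells and 97 in 76 PyMT cells, a ratio of 2.88 (1.48 to 4.79). Its levels in wild type and PyMT were 3.14 and 23.2 CPM in B cells and 9.45 and 34.9 in T cells. In S100a8/S100a9-high cells they were 3.32 and 53.2 CPM. Oasl2 had 4 and 54 UMIs, at 2.04 (0.60 to 3.97), and Isg15, a ubiquitin-like modifier, was at 0.66 (0.06 to 1.29). Ifitm3, a relative of Ifitm1, was at -0.06 (-0.25 to 0.12).

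Genes with lower levels in PyMT B cells included signalling and stress genes. Rgs10 had 119 CPM in wild-type B cells (152 UMIs in 96 cells) and 46.8 in those of PyMT (196 UMIs in 158 cells), a ratio of -1.35 (-1.66 to -1.03) that lay between -1.65 and -1.16 over the alternatives. The T cells of the same libraries had 142 and 209 CPM, less than 1.5-fold apart. Itgal, the integrin chain of LFA-1, was at -1.22 (-1.54 to -0.89), Rgs1 at -2.39 (-3.28 to -1.54), and the chemokine receptor gene Cxcr4 at -0.62 (-1.04 to -0.18). Lepr, the leptin receptor, was at -1.83 (-2.36 to -1.31), and Mpeg1, a pore-forming protein of phagocytes and B cells, at -1.98 (-2.51 to -1.47). Plac8 had 1909 CPM (wild type) and 1299 CPM (PyMT), a ratio of -0.56 (-0.62 to -0.49), which falls just short of 1.5-fold.

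The heat shock genes lower in PyMT were few but of large size. The chaperone genes Hspa1a and Hspa1b were at 265 and 98.2 CPM, and at 56.5 and 12.7 CPM, with ratios of -1.43 (-1.65 to -1.22) and -2.16 (-2.70 to -1.63). T cells had 307 and 207 CPM of Hspa1a. Of 13 heat shock genes 0 were higher and 4 lower (median -0.23). Hsp90b1, a chaperone of the endoplasmic reticulum, was at -1.09 over all B cells and at -0.63 without the cells that held other-lineage transcripts. Of 22 immediate-early genes 2 were higher and 3 lower. Fosb, an AP-1 factor, was at -1.06 (-1.34 to -0.78), and Dusp1, a phosphatase that limits MAP kinases, at 1.02 (0.75 to 1.30). Of 31 nuclear genes of oxidative phosphorylation 0 passed 1.5-fold in either direction (median -0.15).

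Some differences rested on a few cells that carried transcripts of another lineage. Haemoglobin transcripts came to 12 UMIs in wild-type and 12119 in PyMT B cells, and 5 PyMT cells held 11803 of the latter. Without cells holding at least 10 UMIs of other-lineage genes, which left out 6 wild-type and 9 PyMT cells, the Hba-a1 ratio was 3.75 in place of 9.51. Gzma, Ccl5 and Nkg7, genes of cytotoxic cells, came to 656 UMIs in wild type, of which 4 cells held 645, and to 329 in PyMT, of which 3 cells held 293. Ccl5 and Gzma were at -2.84 and -2.64 over all B cells, and Ccl5 at -0.36 without the cells with other-lineage transcripts, so no direction is given for either. Ccl4, at -4.42, had 104 UMIs in wild type, and 1 cell held 89 of them. Lgals1, a galectin gene that T cells held at 832 and 527 CPM, was at -2.29 over all B cells and at -0.75 in Cr2-only cells. S100a4 was at -2.35 over all B cells and at -2.23 in Cr2-only cells.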

How the data were processed

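Per the labels' protocols, cells sorted on CD11b and Gr1 were run on the 10x Genomics platform with version 2 reagents for 3′ ends, at 48488 reads per cell on average. The submitters' processing notes name Cell Ranger 2.1.0 and mm10. The deposited tables hold the authors' raw UMI counts for 27998 genes per cell, with no normalization and no cell annotation. Members, gene lists and comparisons were chosen with earlier results of these data known.

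UMIs were summed over the cells of a class and scaled to the total of the sum (CPM), with exact Poisson intervals. Log2 ratios have exact conditional intervals, and shares have exact Clopper-Pearson intervals, all at 95%. A sum of 0 was set to 3 counts for a bound. Genes with at least 50 UMIs over the sums compared were counted as higher or lower from 1.5-fold. With 1 library per group no test was possible, and UMIs of 1 library come from pooled mice. S100a8/S100a9-high cells were at or above the 5% limit and held fewer than 2 UMIs each of the B cell genes, of Cd3e and Cd3g, and of Csf1r and Ccr2; Csf1r/Ccr2 cells held at least 2 UMIs of those genes and stayed under it.

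Among genes with at least 100 UMIs, the 12 highest and 12 lowest by the interval bound nearest 0 were candidates for naming, without ribosomal, mitochondrial, receptor segment and unnamed genes. Markers, rule genes and up to 6 members of each longer list were added. Other genes named, Il9r, Apoe and Cd69 among them, were chosen after their values were seen. No doublets were removed. As an alternative, cells resembling simulated doublets were dropped at a rate of 0.8% per 1000 cells, 241 wild-type and 671 PyMT cells, of which 0 and 4 were B cells. Other alternatives changed the limits of the rule, the scaling, the weight per cell, the depth, the UMI minimum and the detection limit. The neutrophil background was subtracted at the level given by S100a8 and S100a9. Leaving out cells with other-lineage transcripts, the Cr2-only comparison between conditions, the subtraction and an S100 limit of 2.5% were added after the data were seen. Python 3.11.15 was used with numpy 2.4.6, scipy 1.17.1, pandas 2.3.3, scikit-learn 1.9.0 and matplotlib 3.10.9, and the calculation was tested on simulated data. Gene positions are from GENCODE on GRCm38. Some genes of the lists are counted with their list but are not reported here by name.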

Additional observations from a re-analysis of the deposited data

Results flagged for a closer look

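The genes Cd69 and S100a4 stood at least 1.5-fold apart in opposite directions in the libraries when Cr2-only cells were compared with Fcer2a-only cells; the difference between the libraries was not tested. Cd69, an early activation marker that also retains lymphocytes in tissue, had 7 UMIs in Fcer2a-only and 110 in Cr2-only cells of wild type, a log2 ratio of 1.10 (0.01 to 2.45). In PyMT it had 62 and 331 UMIs, a ratio of -0.62 (-1.02 to -0.21). The wild-type value rests on 4 Fcer2a-only cells with a UMI, and the PyMT value on 39. S100a4, a calcium-binding protein of many leukocytes, had 42 and 96 UMIs in wild type, a ratio of -1.68 (-2.22 to -1.12), and 6 and 75 in PyMT, a ratio of 0.61 with an interval that includes 0. Its 42 wild-type UMIs came from 4 of 21 Fcer2a-only cells, 1 of which held 17, and the 6 in PyMT from 2 of 93.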

How the results depend on the processing

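No paired analysis was possible because each group is 1 library. Of the alternatives, 56 values of shares, 81 counts of genes, 754 list medians and 1350 values of single genes kept within the limits set for them, and 20, 51, 40 and 215 moved. The cause of a move was not tested, except where fewer cells, fewer UMIs or fewer genes are the alternative itself. With S100a8 and S100a9 under 1% of UMIs, the B cell share was 4.55% (wild type) and 0.568% (PyMT), and Cr2-only and double-positive cells were 61.5% and 11.5% of them in PyMT. A limit of 10% gave a B cell share of 12.6% in PyMT, and at least 500 genes with at most 5% mitochondrial UMIs gave 4.81% in wild type. Thinned to 1000 UMIs, Cr2-only cells were 31.9% and 31.8%, cells with both 1.68% and 2.51%, cells with neither 59.1% in each, and Fcer2a-only cells 6.60% in PyMT. With 2 UMIs needed for detection, Cr2-only cells were 45.6% and 46.1%, cells with both 4.70% and 3.07%, cells with neither 42.6% and 45.8%, and Fcer2a-only cells 5.02% in PyMT.

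Counts of genes at least 1.5-fold higher and lower in PyMT over wild type were 484 and 115 when thinned, 230 and 45 from 200 UMIs and 1762 and 926 from 10 UMIs, and 352 were higher under 1% S100. There the interferon median was 0.24 and the neutrophil median 0.33. The thinned homing median was 0.19. The oxidative phosphorylation median was -0.21 with a trimmed mean of M-values and with the median of ratios, and -0.19 without the 50 most abundant genes. For Cr2-only over Fcer2a-only cells of wild type the counts were 442 and 99 with the trimmed mean, 433 and 99 with the median of ratios, 40 and 44 when thinned, 16 and 34 from 200 UMIs and 903 and 1797 from 10 UMIs. In PyMT the lower counts were 318 and 332 under those scalings, and the counts 152 and 198, 50 and 66, and 1369 and 1897 under the other settings, with 42 and 17 under 1% S100. For cells with neither over Fcer2a-only cells of wild type they were 152 and 45, 186 and 41, 11 and 10, 7 and 7, and 669 and 834 in the same order. In PyMT they were 128 and 76, 146 and 63, 27 and 35, 5 and 5, and 1000 and 1149, then 10 and 6 under 1% S100 and 159 and 208 with 2 UMIs needed for detection. The sign turned for Ccl5 (2.36) and Gzma (at least 2.29, against 0 wild-type UMIs) between conditions in Cr2-only cells, where 1 PyMT cell held 75 of 94 and 1 held 50 of 54 UMIs, for Tcf4 in wild type when thinned (-0.35) and for Mzb1 in PyMT under 1% S100 (-0.10).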
